A study of Gallus gallus with 20 samples.

Results

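This account follows 7 genes of muscle wasting and FoxO signalling in chickens raised under an organic or a conventional system: FBXO32, TRIM63, FOXO1, FOXO3, DDIT4, KLHL40 and MUSTN1. They were found by gene name in the deposited expression table, where each name matched 1 row, so that all 7 of 7 were present among 27170 genes. RNA sequencing measured messenger RNA in breast muscle (pectoralis major) and liver of KRC chickens, a mixed-sex, slow-growing flock. The organic birds received feed made of organic ingredients and had an outdoor pasture from day 21, while the conventional birds received commercial feed. Each system started with 125 chicks in 5 pens of 25 birds, and the slaughter age was 91 days. The libraries fall into organic breast muscle, conventional breast muscle, organic liver and conventional liver, with 5 libraries in each group and 20 in all. Feed and pasture changed together and cannot be told apart here. The labels do not say whether liver and muscle came from the same birds, nor which pen each sampled bird came from.

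FoxO transcription factors are switched off by insulin and insulin-like growth factor signalling, because the kinase AKT phosphorylates them and keeps them out of the nucleus. When that signal weakens, as in fasting or disuse in mammals, FOXO1 and FOXO3 enter the nucleus of the muscle fibre and raise transcription of the ubiquitin ligases FBXO32 (atrogin-1) and TRIM63 (MuRF1), which mark muscle proteins for the proteasome. DDIT4 (REDD1) is induced by stress, low oxygen and glucocorticoids and restrains mTORC1, the kinase complex that drives protein synthesis. KLHL40 is a kelch protein of striated muscle that, in mammals, stabilises nebulin and the leiomodin LMOD3 on the thin filament. MUSTN1 is a small nuclear protein of muscle, tendon and cartilage, known from growth and regeneration of these tissues. FoxO activity is controlled mainly by phosphorylation and location, which messenger RNA does not measure.

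Breast muscle libraries held 12699692 to 13417005 counts and liver libraries 14065269 to 20488526. The tissue labels fitted their markers: the 5 skeletal fibre markers in the table had a median of 13.60 to 14.10 log2 CPM in each breast muscle library and of -2.93 to -1.40 in each liver library. CPM are counts scaled to a common library total after TMM scaling, a correction for library composition. Conventional breast muscle 1 stood apart, being highest of the 10 breast muscle libraries for 7 of 9 slow-twitch fibre genes. Among these, MYH7 was at the floor of measurement and nearly tied, at 0.216 CPM against at most 0.215 CPM. Its MYH7B, a slow myosin, stood at 429.6 CPM, against 0.177 to 30.4 CPM in the other 9, so the breast muscle fold changes of all 7 genes are also given without it. The flock is labelled as mixed-sex, and the 14 named genes of the W chromosome had at most 1 count in any library. Whether the sampled birds were all male or W genes were lost in the processing was not worked out. In whole tissue, fewer cells of a type and less RNA per cell cannot be told apart.

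Genes were tested with edgeR's quasi-likelihood test, with p-values adjusted over all genes tested and a threshold of 0.05. In breast muscle no gene passed between organic and conventional birds, 0.0% of 12496, and no adjusted p was below 0.567. Without adjustment, 934 genes (7.47%) had a p under 0.05. DESeq2 called 15 (0.0978% of the 15330 genes to which it gave an adjusted p), none of them among the 7. Every difference between raising systems below is therefore a measured value that did not pass the test. Log2 fold changes are organic over conventional and carry an SE, and means carry the SD over 5 libraries. edgeR gives no SE, so it was worked out as the absolute log2 fold change over the square root of the test's F statistic.

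FOXO3 and FOXO1 were both higher on average in organic than in conventional breast muscle. FOXO3 (ENSGALG00000015297, chromosome 3, 67292563 to 67374494 on the minus strand, build GRCg6a), the main FoxO factor of muscle wasting in mammals, had 425, 330.3, 524, 339 and 409 CPM in organic replicates 1 to 5, against 131, 288, 160.1, 352 and 139.8 CPM in conventional replicates 1 to 5, the order used for every gene below. All 5 organic libraries lay above the conventional mean, yet the groups overlapped, because conventional 4 reached the organic range. Conventional 2 lay just below that range, and conventional 1, 3 and 5 were low. The means were 405 ± 78.1 CPM in organic and 214 ± 99.8 CPM in conventional breast muscle, a log2 fold change of 0.92 ± 0.27 (edgeR adjusted p = 0.567, DESeq2 adjusted p = 0.162).

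FOXO1 (ENSGALG00000017034, chromosome 1, 171900251 to 171963536, plus strand) is the FoxO factor best known from insulin signalling in liver, and also drives the fasting programme in muscle. It had 53.8, 69.0, 130.2, 74.2 and 78.7 CPM in organic breast muscle, against 43.0, 57.4, 22.2, 71.5 and 47.7 CPM in conventional breast muscle. Organic 3 was the highest of the 10 libraries and conventional 3 the lowest, and the other 8 lay between 43.0 and 78.7 CPM. The means were 81.2 ± 29.0 CPM in organic and 48.4 ± 18.3 CPM in conventional breast muscle, a log2 fold change of 0.75 ± 0.30 (edgeR adjusted p = 0.643), which was 0.51 without organic 3.

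Among conventional libraries, the FoxO target ligases were highest in 2 and 4, as FOXO3 and FOXO1 were. The organic libraries did not share an order. Both ligases were lowest in organic 4, FOXO3 in organic 2 and FOXO1 in organic 1. FBXO32 (ENSGALG00000041202, chromosome 2, 138061819 to 138086470, minus strand), the substrate-binding subunit of a muscle ubiquitin ligase, had 791, 1058, 1172, 520.4 and 1099 CPM in organic breast muscle, against 310.0, 776, 263, 677 and 311 CPM in conventional breast muscle. Conventional 1, 3 and 5 lay well below every organic library, conventional 2 and 4 lay above organic 4, and 4 of 5 organic libraries exceeded all conventional ones. The means were 928 ± 269 CPM in organic and 467 ± 239.9 CPM in conventional breast muscle, a log2 fold change of 0.99 ± 0.33 (edgeR adjusted p = 0.567, DESeq2 adjusted p = 0.212). Leaving out 1 library at a time gave 0.84 to 1.25, with the lowest value without conventional 3 and the highest without conventional 2.

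TRIM63 (ENSGALG00000034107, chromosome 23, 3365953 to 3371497, plus strand), a ligase that acts on myosin and other sarcomere proteins, had 1395, 1285, 1098, 526 and 1246 CPM in organic breast muscle, against 359, 1035, 298, 1008 and 415 CPM in conventional breast muscle. Organic 4 was the low library of its group here as for FBXO32, and conventional 2 and 4 were again the high ones of theirs. The means were 1110.2 ± 343 CPM in organic and 623 ± 366 CPM in conventional breast muscle, a log2 fold change of 0.83 ± 0.39 (edgeR adjusted p = 0.66). TRIM63 shares 149 bases with PDIK1L on the other strand, and the sources used here do not say whether reads were counted by strand. PDIK1L had 57 to 137 counts in breast muscle, against 3587 to 16975 for TRIM63.

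**Figure D1:**
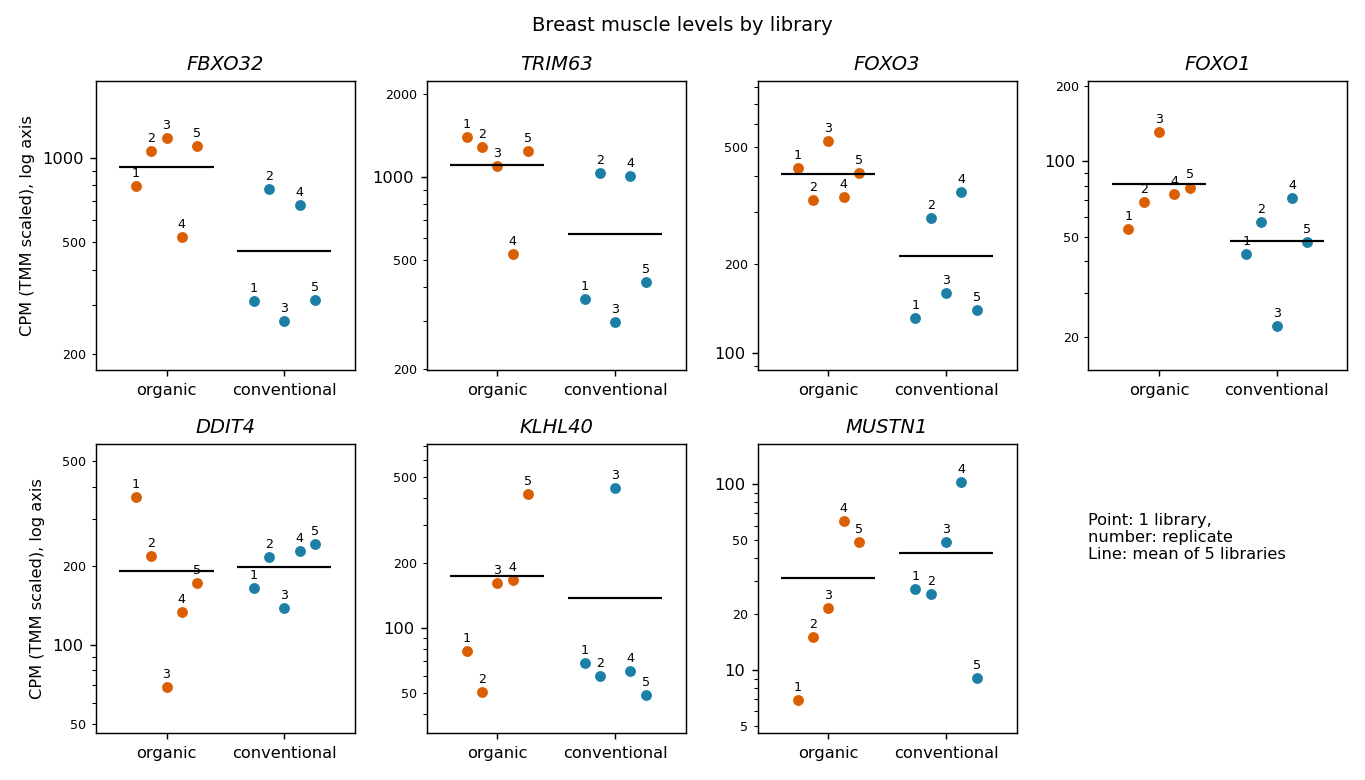
Level of each gene in breast muscle, in CPM on a log axis, with 1 point per library labelled by its replicate number and a line at the mean of 5 libraries, organic left and conventional right. For FBXO32, TRIM63 and FOXO3, conventional 2 and 4 lie within or near the organic range, and conventional 1, 3 and 5 lie lower.

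DDIT4 (ENSGALG00000041459, chromosome 6, 12170562 to 12174718, minus strand) did not follow the ligases. It had 365, 218, 69.1, 133 and 172 CPM in organic breast muscle, against 164, 216, 138, 228 and 242 CPM in conventional breast muscle. The organic group held both the highest and the lowest library, and the conventional group lay between them. The means were 191 ± 111 CPM in organic and 198 ± 44.3 CPM in conventional breast muscle, a log2 fold change of -0.05 ± 0.35 (edgeR adjusted p = 0.987). Without organic 1 the value was -0.42, and without organic 3 it was 0.16. Of the 4157 bases from its start to its end, DDIT4 shares 967 with ANAPC16 on the same strand. The log2 fold change of ANAPC16 was 0.17 ± 0.20. The sources used here do not say how reads in that stretch were assigned.

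KLHL40 (ENSGALG00000005292, chromosome 2, 2093895 to 2104170, minus strand) varied 9.16-fold over the 10 breast muscle libraries. Its levels were 78.4, 50.3, 161, 166 and 418 CPM in organic breast muscle, against 68.4, 60.0, 448, 63.4 and 48.9 CPM in conventional breast muscle. Single libraries, organic 5 and conventional 3, held the highest levels of their groups. The means were 175 ± 145 CPM in organic and 138 ± 174 CPM in conventional breast muscle, a log2 fold change of 0.34 ± 0.76 (edgeR adjusted p = 0.936), which was 1.54 without conventional 3 and -0.28 without organic 5.

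MUSTN1 (ENSGALG00000001709, chromosome 12, 1237478 to 1240970, minus strand) had the widest range, 14.97-fold over the breast muscle libraries. It stood at 6.90, 15.1, 21.7, 63.6 and 48.8 CPM in organic breast muscle, against 27.3, 25.7, 48.8, 103 and 9.07 CPM in conventional breast muscle. The groups overlapped almost completely, with organic 1 lowest and conventional 4 highest. The means were 31.2 ± 24.0 CPM in organic and 42.8 ± 36.6 CPM in conventional breast muscle, a log2 fold change of -0.45 ± 0.69 (edgeR adjusted p = 0.902). It was 0.17 without conventional 4 and -0.88 without organic 4.

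The 7 genes were chosen with earlier results of these data known, so the counts and shares here are a description and no test. Of the 7 genes, 5 had a log2 fold change above 0 in breast muscle, where 48.0% of all genes tested did. FBXO32, FOXO1 and FOXO3 were higher at an unadjusted p under 0.05, 3 of 7, where 3.36% of all genes were. FBXO32, FOXO1 and FOXO3 also had all 5 organic libraries above the conventional mean, as 7.34% of genes did, and none of the 7 had groups that did not overlap, as 0.584% did with organic higher and 0.648% with organic lower. Without conventional breast muscle 1 the log2 fold changes were 0.79 for FOXO3, 0.71 for FOXO1, 0.87 for FBXO32 and 0.69 for TRIM63, and -0.11 for DDIT4, 0.17 for KLHL40 and -0.58 for MUSTN1. Without it 2 of 7 genes were higher at an unadjusted p under 0.05, where 277 of 12635 genes tested were.

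Markers of other cells moved beside these values. Of the satellite cell markers, the muscle stem cell genes PAX7, MYF5 and MYOD1, 1 of 3 was higher in organic breast muscle, and their summed level was 58.6 to 131 CPM in organic and 107 to 189 CPM in conventional libraries. MYOD1, which commits these cells to muscle, averaged 71.4 ± 29.9 CPM in organic and 119 ± 31.4 CPM in conventional breast muscle. PAX7, which marks them, averaged 3.66 ± 1.77 CPM in organic and 6.93 ± 1.27 CPM in conventional breast muscle. MYF5 was nearly level, at 13.8 ± 5.06 CPM in organic and 13.3 ± 4.47 CPM in conventional breast muscle. Erythrocyte genes were higher in 4 of 4 cases, with sums of 68.5, 77.5, 108, 425 and 158 CPM in organic libraries 1 to 5 and 71.2 to 97.9 CPM in conventional libraries. The highest sum was organic 4 alone, and organic 1 and 2 lay within the conventional range or below it. Endothelial genes were higher in 0 of 6, with sums of 378 to 538 CPM in organic and 401 to 652 CPM in conventional libraries. The skeletal fibre sum overlapped between systems, at 108553 to 128671 CPM in organic and 95925 to 136551 CPM in conventional libraries. In conventional libraries 1 to 5 it was 130902, 95925, 136551, 118128 and 125030 CPM. It was thus lowest in 2 and 4, where the ligases were highest. Among organic libraries it was lowest in 4, where the ligases were also lowest. Of the other lists, 5 of 7 fibroblast, 1 of 4 adipocyte, 1 of 2 macrophage and 3 of 4 T cell genes were higher in organic breast muscle. The sums of each of these lists overlapped between systems. The part of all these cells in the differences of the 7 genes was not tested.

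In liver no gene passed between systems either, 0.0% of 13186, with 997 genes (7.56%) at an unadjusted p under 0.05. DESeq2 called 31 (0.208% of the 14887 genes to which it gave an adjusted p), none of them among the 7. FOXO3 had 25.3, 5.11, 7.68, 30.5 and 14.1 CPM in organic liver, against 10.1, 8.53, 10.3, 8.38 and 8.26 CPM in conventional liver. The organic group was wide, with 3 libraries above and 2 below all conventional ones, while the conventional libraries lay close together. The log2 fold change was 0.86 ± 0.41 (edgeR adjusted p = 0.653), but 0.53 without organic liver 4 and 0.49 in limma on log2(FPKM + 1).

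FBXO32 levels in liver were 18.6, 14.3, 21.7, 17.5 and 23.9 CPM in organic birds and 17.9, 16.9, 25.4, 16.9 and 26.1 CPM in conventional birds, with a log2 fold change of -0.11 ± 0.18 (edgeR adjusted p = 0.896), which ran from -0.20 without organic liver 5 to -0.0060 without conventional liver 5. TRIM63 was near the floor of measurement, with 23 to 82 counts per liver library. It had 4.47, 2.93, 1.67, 1.77 and 2.85 CPM in organic liver, against 3.22, 4.08, 5.06, 5.75 and 3.27 CPM in conventional liver, a log2 fold change of -0.64 ± 0.31 (edgeR adjusted p = 0.653), or -0.34 in limma on log2(FPKM + 1). Organic 2, 3, 4 and 5 lay below every conventional liver library and organic 1 did not. The summed fibre markers were 1.45 to 2.92 CPM in organic and 0.929 to 7.10 CPM in conventional liver, and their part in the TRIM63 value was not tested.

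Of the remaining genes in liver, FOXO1 had 20.1 to 54.3 CPM over the 10 livers and a log2 fold change of 0.23 ± 0.23 (edgeR adjusted p = 0.822), DDIT4 had -0.10 ± 0.17 (adjusted p = 0.896) and MUSTN1, with 4 to 28 counts per library, had -0.21 ± 0.58 (adjusted p = 0.941). KLHL40 had 6 counts in all 10 liver libraries together, with 0 in 5 of them and at most 2 in one, and was not tested there.

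Whether the difference between systems itself differed between tissues was tested over all 20 libraries, and no gene passed, 0.0% of 14447, with 771 genes (5.34%) at an unadjusted p under 0.05 and 0 called by DESeq2. The breast muscle log2 fold change exceeded that of liver by 1.45 ± 0.52 for TRIM63 (edgeR adjusted p = 0.896) and by 1.08 ± 0.40 for FBXO32 (adjusted p = 0.925). For FOXO3 the gap was 0.05 ± 0.52 (adjusted p = 1), but 0.55 in limma on log2(FPKM + 1) and 0.42 with a replicate block. For FOXO1 it was 0.51 ± 0.40 (adjusted p = 0.953), and 0.28 without organic breast muscle 3 or 0.33 without conventional breast muscle 3. None of these gaps passed the threshold.

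**Figure D2:**
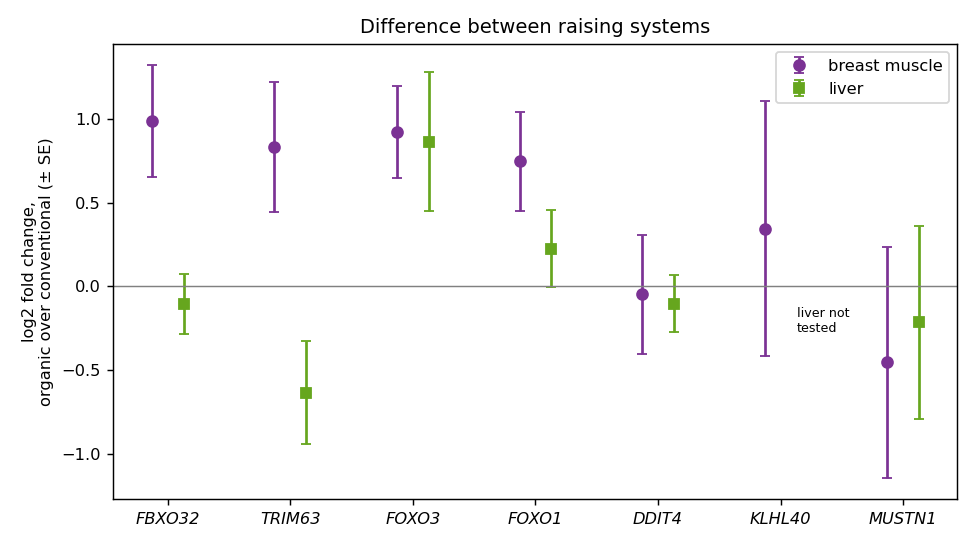
Log2 fold change of each gene, organic over conventional, with an SE worked out from edgeR's F statistic, in breast muscle (circles) and liver (squares). FBXO32 and TRIM63 lie above 0 in breast muscle and below 0 in liver (FBXO32 in liver within its SE of 0), FOXO3 lies above 0 in both, and no value passed the test.

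Between tissues the genes separated clearly. All 7 rose in breast muscle relative to liver (edgeR adjusted p from 3.02e-15 for TRIM63 to 3.01e-05 for FOXO1), where 81.5% of 14447 genes were called and 39.1% were called higher in breast muscle. To compare genes with each other, levels are given as FPKM, which divides by gene length. TRIM63 averaged 311 ± 153 FPKM in breast muscle and 1.14 ± 0.434 FPKM in liver (SD, 10 libraries each), a ratio of means of 274. FBXO32 averaged 159.6 ± 78.5 FPKM in breast muscle and 4.11 ± 0.787 FPKM in liver, a ratio of 38.8, and FOXO3 averaged 95.3 ± 40.9 FPKM in breast muscle and 3.56 ± 2.30 FPKM in liver, a ratio of 26.8.

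FOXO1 was the least muscle-biased of the 7, at 11.8 ± 5.20 FPKM in breast muscle and 5.20 ± 1.65 FPKM in liver, a ratio of 2.26. It was also the only one whose tissues overlapped: the lowest breast muscle library had 4.01 FPKM and the highest liver library 9.14 FPKM. For the other 6, every breast muscle library lay above every liver library, as it did for 24.3% of all genes tested. The ratio of means was 41.0 for MUSTN1 and 20.7 for DDIT4, and none is given for KLHL40, which was listed at 0 in 5 of 10 livers.

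In breast muscle the order of mean levels was DDIT4 (317 ± 133 FPKM), TRIM63, FBXO32, FOXO3, KLHL40 (92.4 ± 89.996 FPKM), MUSTN1 (49.7 ± 39.97 FPKM) and FOXO1. Each neighbouring pair differed by less than the larger SD of the pair over the 10 libraries. Within libraries, however, TRIM63 exceeded FBXO32 in 10 of 10, by 1.47 to 2.76 times, and FBXO32 exceeded FOXO3 in 10 of 10. DDIT4 exceeded TRIM63 in 6 and FOXO3 exceeded KLHL40 in 7. The first place of DDIT4 rests on division by its short gene length, 639 bases. In CPM, which do not divide by length, DDIT4 averaged 194 ± 79.9. TRIM63 averaged 867 ± 422 CPM, FBXO32 698 ± 342 CPM and FOXO3 310 ± 131 CPM.

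**Figure D3:**
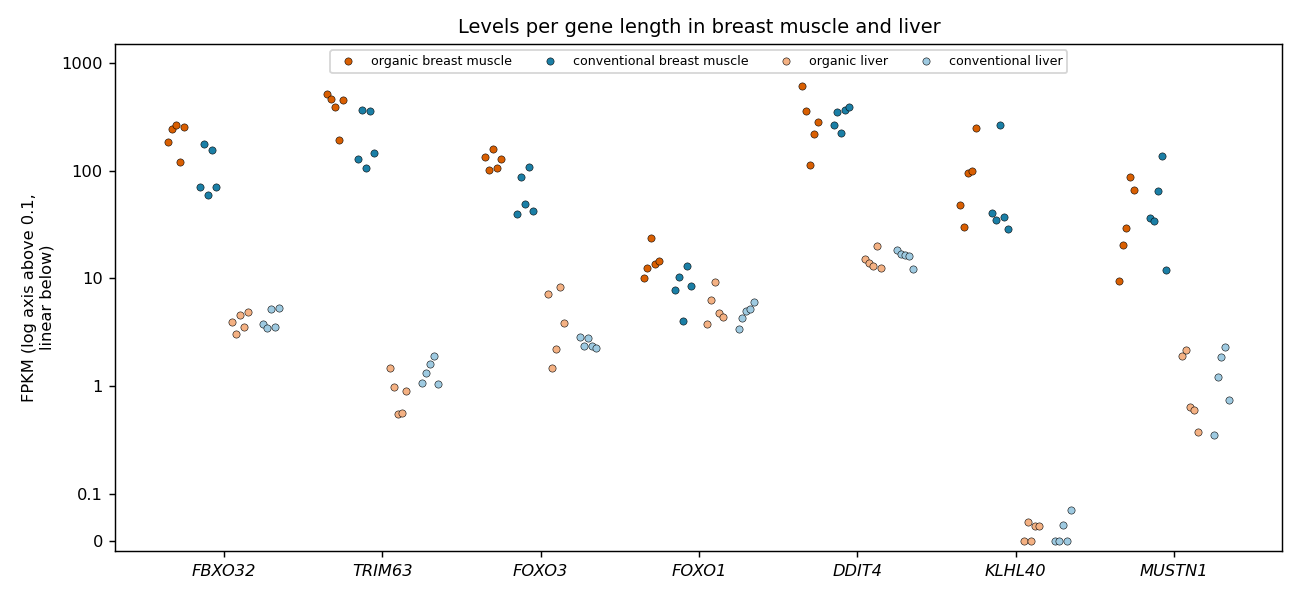
Level of each gene per gene length, in FPKM on an axis that is logarithmic above 0.1 and linear below, with 1 point per library for organic and conventional breast muscle and organic and conventional liver. Breast muscle points lie above liver points for 6 of 7 genes, and those of FOXO1 overlap between 4.01 and 9.14 FPKM.

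Across the 10 breast muscle libraries, pooled over systems, FBXO32, TRIM63 and FOXO3 varied together, and FOXO1 varied with FBXO32 and FOXO3. The genes were chosen with earlier results of these data known, so the correlations and their p-values are a description. A difference between systems shared by 2 genes adds to their pooled r, and on deviations from group means no pair passed, as given below. Pearson's r on log2 CPM was computed for the 21 pairs of the 7 genes, with permutation p-values adjusted over the pairs, and 5 pairs passed. FBXO32 and TRIM63 had the highest r, 0.95 (permutation p = 0.00015, adjusted 0.00315), with Spearman's rho of 0.88 (permutation p = 0.00126, adjusted 0.0265), the only pair to pass by rank. Leaving out the 2 libraries farthest from the median of FBXO32 gave r = 0.89. Among the other genes tested, TRIM63 ranked 1 of 12495 for likeness to FBXO32, and FBXO32 ranked 1 for TRIM63. The other pairs that passed ranked lower. For likeness to FBXO32, FOXO3 ranked 10 and FOXO1 ranked 56, and for likeness to TRIM63, FOXO3 ranked 27. For likeness to FOXO3, FBXO32 ranked 13, TRIM63 ranked 38 and FOXO1 ranked 119. For likeness to FOXO1, FBXO32 ranked 45 and FOXO3 ranked 72. Other genes thus had higher r in each of these cases, and such values are not particular to FoxO genes and their targets.

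FOXO3 also ran close to the ligases. Its r was 0.91 with FBXO32 (permutation p = 0.0012, adjusted 0.0084; rho 0.81, permutation p = 0.00728, adjusted 0.0636) and 0.87 with TRIM63 (permutation p = 0.00292, adjusted 0.0131; rho 0.73, permutation p = 0.0203, adjusted 0.0853). Leaving out the 2 libraries farthest from the median of the ligase gave 0.85 with FBXO32 and 0.75 with TRIM63. FOXO1 had r = 0.81 with FBXO32 (permutation p = 0.00109, adjusted 0.0084; rho 0.79, permutation p = 0.00909, adjusted 0.0636), which was 0.64 without the 2 libraries farthest for FBXO32. With FOXO3 it had r = 0.78 (permutation p = 0.00313, adjusted 0.0131; rho 0.77, permutation p = 0.0124, adjusted 0.0653), which was 0.80 without the 2 libraries farthest from the median of FOXO1. TRIM63 and FOXO1 did not pass (r = 0.69, permutation p = 0.0162, adjusted 0.0567; rho 0.54, permutation p = 0.113, adjusted 0.34).

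Libraries of both systems enter these values, so the same pairs were computed on deviations from each group's mean. On deviations r was 0.93 for FBXO32 and TRIM63, 0.82 for FBXO32 and FOXO3, 0.79 for TRIM63 and FOXO3, 0.67 for FBXO32 and FOXO1 and 0.61 for FOXO1 and FOXO3. With libraries permuted within groups, 0 of 21 pairs passed after adjustment, and the FBXO32 and TRIM63 pair had a permutation p of 0.0121 (adjusted 0.254). DDIT4, KLHL40 and MUSTN1 were in no pair that passed. The r of DDIT4 and KLHL40 was -0.52 (permutation p = 0.131, adjusted 0.393), that of KLHL40 and MUSTN1 was 0.46 (permutation p = 0.181, adjusted 0.476), and that of DDIT4 and FBXO32 was -0.07 (permutation p = 0.848, adjusted 0.963).

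**Figure D4:**
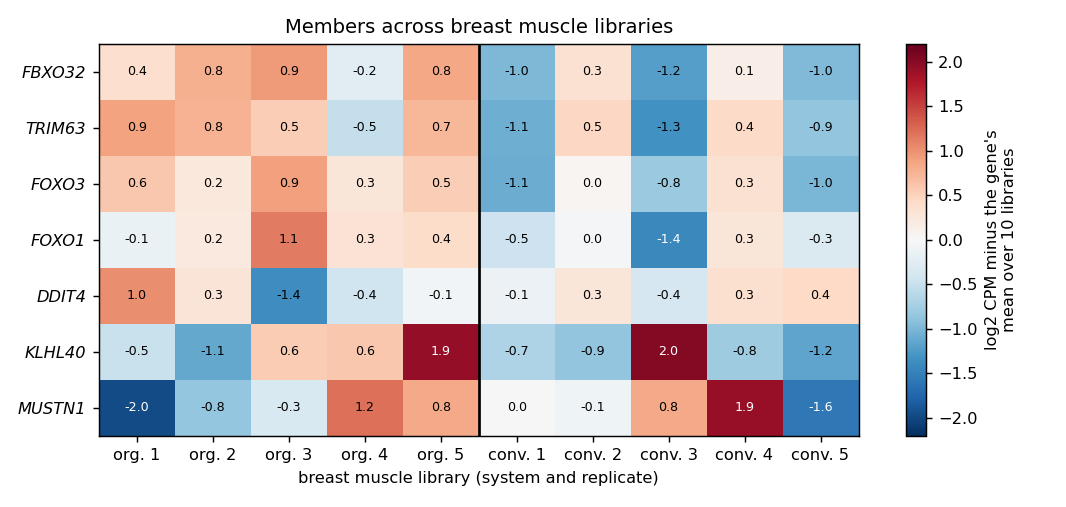
Log2 CPM of each gene in each breast muscle library minus the gene's mean over the 10 libraries, printed in the cells, with organic libraries left of the line and conventional libraries right of it. FBXO32, TRIM63 and FOXO3 are all low in conventional 1, 3 and 5, while DDIT4, KLHL40 and MUSTN1 follow other libraries.

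The genes outside the 7 whose levels ran closest to each are given as a description over the same 10 libraries, which share depth and the systems' difference. For FBXO32 they were ZBTB2 (r = 0.93), PIAS4 (0.93), HDGFL2 (0.93), ELL (0.92) and INPP5E (0.92), and for TRIM63 INPP5E (0.93), HDGFL2 (0.93) and CEBPD (0.92). ELL encodes a factor of transcription elongation, PIAS4 a SUMO ligase, and CEBPD a transcription factor induced by glucocorticoids and inflammation. Closest to FOXO3 were MMP24 (0.95), PDLIM7 (0.93) and CYP2U1 (0.93), and closest to FOXO1 were PDP2 (0.92), ACTN4 (0.92) and RRAS2 (0.91). For DDIT4 they were TATDN1 (0.95), MFF (0.95), which recruits the mitochondrial fission machinery, and APOO (0.91). KLHL40 ran closest to CARMIL1 (0.96), LPGAT1 (0.94) and SNAP29 (0.93), and MUSTN1 to RGS5 (0.96), a gene of pericytes and vascular smooth muscle, PTBP2 (0.90) and TDP2 (0.88).

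Genes of the surrounding pathway were read from 5 lists in breast muscle, and no member of any list passed edgeR's or DESeq2's test. The lists were chosen with earlier results of these data known, so their counts in both tissues are a description and no test. The lists also share genes, so their counts are not separate observations. INSR is in the upstream and FoxO target lists, FBXO30 in the target and ligase lists, and CUL3 in the ligase and kelch lists. Over all genes tested, 48.0% had a log2 fold change above 0 and the median was -0.01. Of the insulin, IGF and AKT genes that act upstream of FoxO, 8 of 20 were above 0 with a median of -0.06. AKT2, the insulin-responsive AKT kinase, had 182, 129, 128, 139 and 144 CPM in organic breast muscle, against 95.4, 122, 124, 117 and 121 CPM in conventional breast muscle. The groups did not overlap, as for 0.584% of all genes with organic higher, and the log2 fold change was 0.32 ± 0.13, or 0.26 without conventional 1, the lowest library. FOXO6, another FoxO factor, stood at 0.98 ± 0.39, and 1.54 without conventional 4, while IRS1, an adaptor of the insulin receptor, stood at -0.69 ± 0.29 and AKT1 at -0.33 ± 0.16.

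Of the other known FoxO targets, 22 of 29 tested were above 0, with a median of 0.15, against 21 of 29 and 0.10 without conventional breast muscle 1. Those at an unadjusted p under 0.05 numbered 4 above and 1 below 0, where 3.36% and 4.11% of all genes were. Without conventional 1 they numbered 1 above and 1 below, where 277 and 337 of 12635 genes were. Without organic 1 they numbered 0 above and 1 below, where 326 and 382 of 12710 genes were. The highest number above 0 was 5, without organic 3. SESN1, a sestrin that restrains mTORC1, had 1896, 1229, 1263, 1269.8 and 1679.6 CPM in organic breast muscle, against 647, 1347, 505, 1283 and 658 CPM in conventional breast muscle, a log2 fold change of 0.72 ± 0.27. Conventional 2 and 4 were its high libraries, as for the ligases. The stress genes GADD45B and GADD45A stood at 1.03 ± 0.41 and 0.43 ± 0.18, GADD45A at 0.29 without organic 1. In the other direction, ULK1, the kinase that starts autophagy, had 12.3 to 26.1 CPM in organic breast muscle, against 50.9, 51.9, 42.4, 10.8 and 84.9 CPM in conventional replicates 1 to 5. Conventional 4 was the lowest of the 10 libraries and the other conventional ones lay above all organic ones, and the log2 fold change was -1.51 ± 0.43 (DESeq2 adjusted p = 0.0763).

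Of other ubiquitin ligases and their partners in muscle, listed with the deubiquitinating enzymes USP14 and USP19, 10 of 19 were above 0 with a median of 0.00. FBXO40, a muscle F-box protein that in mice targets IRS1, stood at -0.44 ± 0.15, NEDD4 at -0.73 ± 0.29, FBXO30 at 0.48 ± 0.23 and the cullin CUL3 at 0.28 ± 0.14. FBXO40 averaged 147 ± 16.8 CPM in organic and 200.1 ± 35.2 CPM in conventional breast muscle, where FBXO32 and TRIM63 had the higher mean in organic muscle. TRIM55 and TRIM54, the nearest relatives of TRIM63, stood at -0.31 ± 0.27 and 0.06 ± 0.19; these were chosen after their values were seen.

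Around DDIT4, 13 of 17 genes of the sestrin and mTORC1 list were above 0 with a median of 0.15, and 10 to 14 of 17 when 1 library was left out. This list shares SESN1, SESN3, EIF4EBP1 and TXNIP with the FoxO targets, and EIF4EBP1 is the median gene of both. SESN2, a sestrin induced by stress, had 57.7, 67.4, 115, 90.5 and 133 CPM in organic breast muscle, against 102, 253, 197, 100.6 and 289.7 CPM in conventional breast muscle, a log2 fold change of -1.02 ± 0.33. Its conventional 1 and 4 lay within the organic range and the other 3 above it, opposite to SESN1 in mean direction. The stress factor ATF4 stood at 0.37 ± 0.16 and CEBPD at 0.65 ± 0.33.

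Of the muscle kelch proteins and partners of KLHL40, 7 of 11 were above 0 with a median of 0.07. LMOD2, a leiomodin, stood at -3.15 ± 1.17, but at -0.53 without conventional breast muscle 1, where it had 29.4 CPM. It had 407 counts in that library and was near the floor of measurement in the others, with 6 to 20 counts. DESeq2 gave it no adjusted p. KLHL31 stood at -0.34 ± 0.22 and KLHL30 at -0.25 ± 0.24, which were -0.22 and -0.09 without conventional 3. LMOD3, the partner best known for KLHL40, stood at 0.05 ± 0.21 and was chosen after its value was seen. KLHL30 overlaps ILKAP on the other strand. The 4 genes of each list with the smallest p had edgeR adjusted p from 0.567 to 0.816.

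In liver 47.7% of all genes tested were above 0. FoxO targets had 14 of 31 above 0 with a median of -0.01, and upstream genes 9 of 18. The ligase list had 9 of 17 and the sestrin and mTORC1 list 7 of 17. The kelch list, of which 5 of 11 genes were tested in liver, had 1 above 0 with a median of -0.24. LMOD1 and ACTA1, 2 of 5, were lower at an unadjusted p under 0.05, where 3.97% of all genes were. ACTA1 (edgeR unadjusted p = 0.048) is a skeletal fibre marker and was near the floor of measurement. The summed fibre markers, with ACTA1 among them, were 0.929 to 7.10 CPM over the livers.

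**Figure D5:**
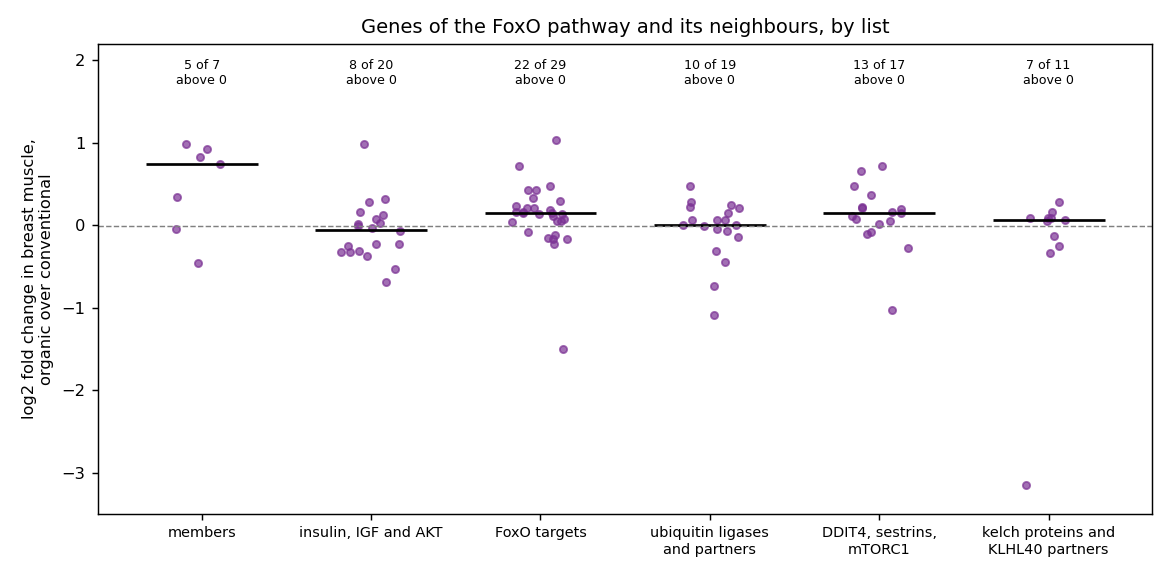
Log2 fold change in breast muscle, organic over conventional, of each tested gene (1 point), by list, with a line at the list's median and the number of genes above 0 printed over it. FoxO targets have 22 of 29 points above 0, the insulin, IGF and AKT list has 8 of 20, and the low point of the kelch list is LMOD2.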

How the data were processed

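Sample titles gave the groups and replicate numbers. RNA was extracted with TRIzol, per the labels' protocols. The build GRCg6a and the tools DESeq2 1.20.0 and HISAT2 2.0.5 come from the submitters' processing notes. For the counting tool and the strandedness, the sources used here give nothing. The authors deposited whole-number read counts and FPKM per gene. The deposited FPKM equalled count over gene length and a library factor, which was the median-of-ratios size factor times the geometric mean of library totals (0.824 to 1.19 of the library's own total). Counts were used for tests and FPKM for levels between genes and 1 alternative.

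The 7 genes and the 5 pathway lists were chosen with earlier results of these data known. Counts were tested with edgeR 4.0.16 in R 4.3.3 (quasi-likelihood F-test, robust, TMM, filterByExpr with minimum count 10, two-sided, Benjamini-Hochberg over all genes tested, threshold 0.05), per tissue, and over 20 libraries with 4 group means for contrasts between tissues. The scripts were tested on simulated data. Correlations used log2 CPM (prior count 2) and 100000 permutations. Alternatives were median-of-ratios factors, library totals, no filter, DESeq2 1.42.0, limma 3.58.1 on log2(FPKM + 1), a replicate block and leaving out each library. Within a tissue, the replicate block paired organic and conventional libraries of the same number. In contrasts between tissues, it joined breast muscle and liver of the same system and number. The labels give neither pairing.

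All 7 genes are named throughout. Of each list, the 4 genes with the smallest p in breast muscle are named because none passed. Likeness is the highest Pearson r over 10 breast muscle libraries, 5 genes for FBXO32 and 3 for each other gene, with symbols from the table. Of the 13482 genes without a symbol, 720 received one from a RefSeq table (assembly GRCg7b), for list matching only. The p-values measure spread between the sampled birds' libraries. The labels do not give the pen of each, so the tests hold no pen term and spread between pens was not separated.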

Additional observations from a re-analysis of the deposited data

Results flagged for a closer look

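In 8 of 62 groups of 5 libraries tested, 1 library stood far from the other 4 by Dixon's criterion. The criterion is a gap to the nearest library above 0.71 of the group's range. Chance flags about 1 in 20 groups where values are normally distributed, and the rate for CPM was not worked out. Of the 7 genes, KLHL40 had 448 CPM in conventional breast muscle 3, against 48.9 to 68.4 CPM in the other conventional breast muscle libraries. DDIT4 had 13.8 CPM in organic liver 4, against 8.55 to 10.03 CPM in the other organic livers.

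The other 6 were pathway genes in breast muscle. FOXO6 had 23.4 CPM in conventional 4, against 5.48 to 8.51 CPM in the rest of that group. AKT2 had 95.4 CPM in conventional 1, against 117 to 124 CPM. IRS1 had 74.6 CPM in organic 5, against 31.6 to 43.2 CPM, and NEDD4 had 26.1 CPM in the same library, against 11.8 to 15.6 CPM. LMOD2 had 1.56 CPM (20 counts) in organic 5, against 0.449 to 0.619 CPM (6 to 8 counts), all near the floor of measurement. It had 29.4 CPM in conventional 1, against 0.429 to 1.58 CPM. That library also stood apart for slow-twitch fibre genes.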

How the results depend on the processing

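In breast muscle edgeR's count of called genes was 0 with other scaling, without the filter and with a replicate block, and 0 to 1 when 1 library was left out (1 without conventional 4), while DESeq2 called 15. In liver it was 0 in edgeR and 31 in DESeq2. No alternative or omission called any of the 7 genes between systems. FBXO32, TRIM63, FOXO1 and FOXO3 were higher in organic breast muscle under every alternative and omission run. The lists without single libraries, and the correlations without them, were added after seeing the data.

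Values near 0 turned sign. The DDIT4 gap between tissues was -0.0048 with library totals only, -0.10 in limma on FPKM and -0.11 with the replicate block. Leaving out 1 library gave ranges of -0.42 to 0.16 for DDIT4, -0.28 to 1.54 for KLHL40 and -0.88 to 0.17 for MUSTN1 in breast muscle, and -0.0052 to 0.35 for FOXO1 and -0.55 to 0.0717 for MUSTN1 in liver. For the gap between tissues the ranges were -0.17 to 0.37 for FOXO3, -0.33 to 0.27 for DDIT4, -0.54 to 1.55 for KLHL40 and -0.69 to 0.37 for MUSTN1. Other values moved by over 1.5 times with their sign kept. In limma on FPKM these included KLHL40 in breast muscle (0.61) and MUSTN1 in liver (-0.11), and with the replicate block KLHL40 in breast muscle (0.54), DDIT4 in breast muscle (-0.23) and LMOD2 (-1.54). With library totals only they included DDIT4 in breast muscle (-0.16) and liver (-0.16), FBXO32 in liver (-0.18), FOXO1 in liver (0.14), MUSTN1 in liver (-0.33) and the FOXO3 gap between tissues (0.0137). In limma the 1 added to each FPKM pulls the fold change of a gene near 1 FPKM toward 0 by arithmetic. TRIM63 and MUSTN1 in liver, with means of 1.14 and 1.21 FPKM, are such genes. For the other moves the cause was not tested.

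The 5 correlated pairs became 0 on deviations from group means and 4 to 6 when 1 library was left out. FBXO32 and FOXO1 missed the threshold without conventional 3 (permutation test, adjusted p = 0.0856) and FOXO1 and FOXO3 without organic 3 (0.0618), while TRIM63 and FOXO1 passed without organic 1 (0.0214) or organic 4 (0.0237). On deviations r turned to 0.0796 for FBXO32 and DDIT4, 0.10 for FBXO32 and MUSTN1 and -0.0735 for FOXO3 and KLHL40. Leaving out 1 library, r turned sign within -0.21 to 0.38 (FBXO32 and DDIT4), -0.28 to 0.43 (FBXO32 and KLHL40), -0.30 to 0.0841 (FBXO32 and MUSTN1), -0.43 to 0.22 (TRIM63 and KLHL40), -0.39 to 0.0462 (TRIM63 and MUSTN1), -0.73 to 0.22 (FOXO1 and DDIT4), -0.31 to 0.57 (FOXO1 and KLHL40), -0.0475 to 0.33 (FOXO1 and MUSTN1), -0.38 to 0.32 (FOXO3 and DDIT4), -0.0252 to 0.52 (FOXO3 and KLHL40) and -0.18 to 0.31 (FOXO3 and MUSTN1).

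Organic and conventional libraries of the same number did not deviate together (in breast muscle their correlations ran from -0.18 to 0.08, in liver from -0.14 to 0.14), and 1 of 5 in each tissue correlated best with its own number, so the number pairs no samples there. Breast muscle and liver of the same number correlated at 0.10 to 0.19 in organic and 0.05 to 0.17 in conventional birds, each best with its own number (5 of 5 in each system), a hint from the data and not the design. Within a tissue, the replicate block paired organic and conventional libraries of the same number. The 0 genes it called in breast muscle and in liver therefore rest on a pairing without a basis in the labels. With the block that joined breast muscle and liver of the same number, 0 genes were called in the gap between tissues. That block called 11831 genes between breast muscle and liver, against 11779 without it. Low counts limit KLHL40, MUSTN1 and TRIM63 in liver.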
